A study of Mus musculus with 8 samples.

Results

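The 10 genes described here mark pericytes, the cells that wrap small blood vessels, or carry the platelet-derived growth factor (PDGF) signal by which vessels recruit them. They are Pdgfa, Pdgfb, Pdgfra, Pdgfrb, Rgs5, Cspg4, Abcc9, Kcnj8, Mcam and Anpep, picked by symbol among 19938 singly named genes. All 10 were measured, each by 1 probe set.

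RNA came from mouse pancreatic buds at e12.5 of embryonic development in 4 groups, and each group was 1 pool of RNA hybridized to 2 arrays. The VEGF buds were from 3 embryos with both Pdx1-tTA, a tetracycline transactivator driven by the promoter of the pancreatic epithelial factor Pdx1, and TET-VEGF, the VEGF transgene it switches on. The control buds were from 3 littermates with Pdx1-tTA alone, so both pools carried the driver. The explants were wild-type buds cultured for 2 days with VEGFR2i, a blocker of VEGF receptor 2, or with vehicle, with 5 samples in each pool. Pooling leaves no biological replicate: an SD here (n = 2 arrays) measures hybridization error only, no test of the genotype or the treatment can be made, and a difference compares 1 pool with 1 pool. The sources used here do not say which sample came from which litter.

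Values are log2 expression. A difference is one pool mean minus another, with the lowest and highest value among the 4 pairs of arrays in square brackets. A gene was called higher or lower when that difference reached 1.5-fold (0.585) and the arrays of the pools did not overlap. By this size rule 0.552% of all genes were higher and 0.933% lower in VEGF buds than in control buds, and 1.82% were higher and 0.371% lower in the explants labelled VEGFR2i than in those labelled vehicle. The 2 arrays of a pool differed by at most 0.23 for any of the 10 genes, with a median gap of 0.06. Every array placed all 10 genes above its median, the lowest of their levels being 5.29 against array medians of 4.08 to 4.33. Pdx1 was at 6.38 in VEGF buds, 6.96 in control buds and 8.43 in both explant pools. Endothelial genes went against the explant labels: these genes, which the inhibitor should lower, were higher in the explants labelled VEGFR2i, where 15 of 16 listed endothelial genes were called higher. Directions below follow the labels as they stand, and they do not show what the inhibitor does.

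In a growing vessel, endothelial cells secrete PDGF-B, the product of Pdgfb, and keep it near their surface. Pericyte precursors carry its receptor, PDGF receptor beta (Pdgfrb), and are drawn along the vessel by it. PDGF-A is made mainly by epithelia and acts through PDGF receptor alpha (Pdgfra), which mesenchymal cells carry. Rgs5, Cspg4 (NG2), Abcc9 and Kcnj8 are markers of pericytes once on the vessel. Mcam (CD146) and Anpep (CD13) are surface proteins of pericytes that other cells make too, Mcam in endothelium and Anpep in the brush border of epithelia and in myeloid cells.

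In the fresh buds the vessel-derived ligand gene Pdgfb differed between the pools, while its receptor gene Pdgfrb and Rgs5, Cspg4, Abcc9 and Kcnj8 differed little. Pdgfb and Mcam were called higher in VEGF buds and Anpep was called lower, 3 of 10 genes. The other 7 differed by -0.07 to 0.23, among them Pdgfrb, Rgs5, Cspg4, Abcc9 and Kcnj8, whose differences ran from -0.04 to 0.23 with a median of 0.05. This group of 5 leaves out Mcam and Anpep, the pericyte surface genes that were called in the buds, so its bud range reflects that choice. In the explants 7 of the 10 genes were called higher in the pool labelled VEGFR2i and none lower. There the same 5 genes differed by 0.75 to 1.26, with a median of 1.07, Mcam by 0.86 and Anpep by -0.44. The median difference of all 19938 genes was 0.00 in both comparisons.

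**Figure D1:**
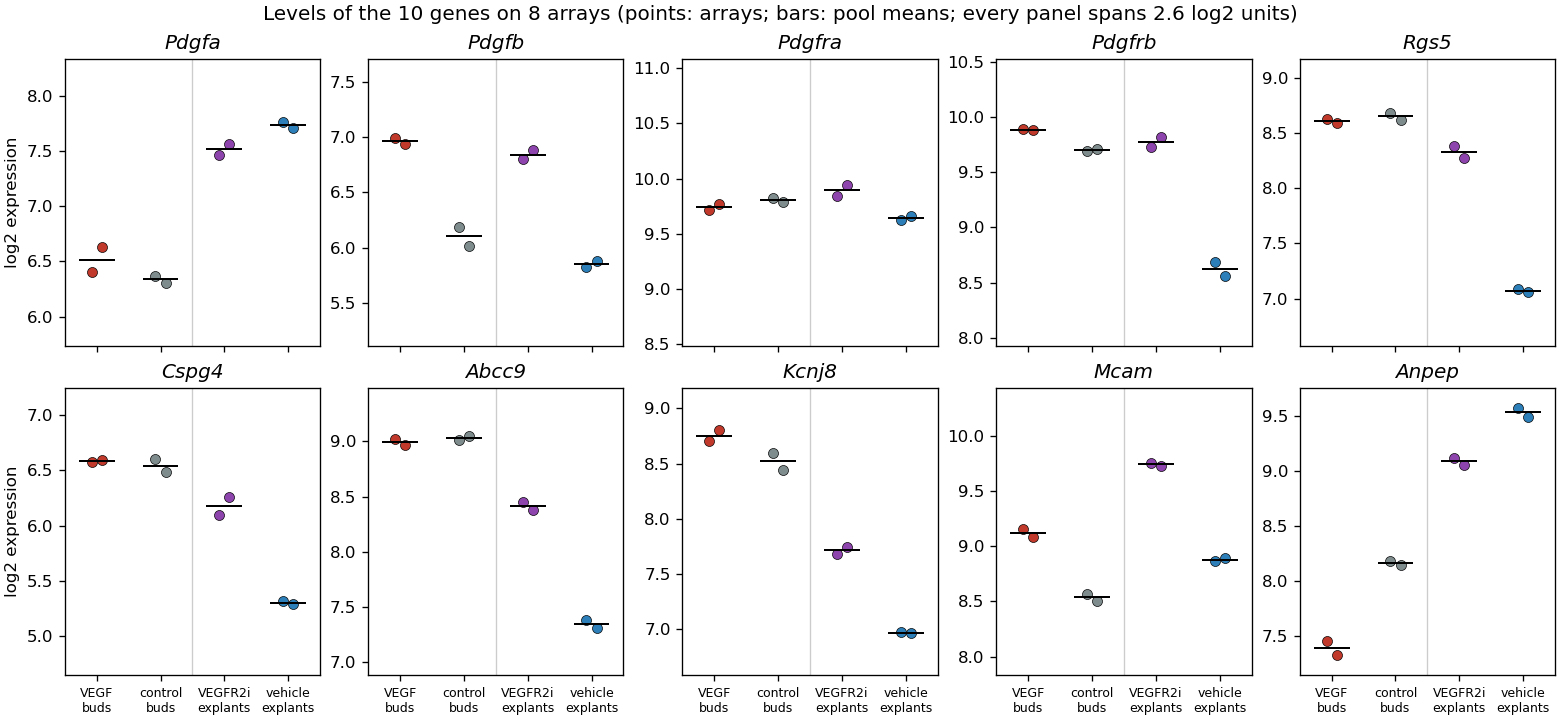
Log2 expression of each of the 10 genes (vertical axes, all spanning the same range) in the 4 pools, with a point for each array and a bar at each pool mean. Rgs5, Cspg4, Abcc9, Kcnj8 and Pdgfrb were lowest in the explants labelled vehicle, and Pdgfb followed the same order within each pair of pools, high on the left and low on the right.

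The ligands came apart from each other. Pdgfb was at 6.99 and 6.94 on the VEGF bud arrays, 6.19 and 6.02 on the control bud arrays, 6.80 and 6.88 on the arrays of explants labelled VEGFR2i, and 5.83 and 5.88 on those of explants labelled vehicle. Both VEGF bud arrays lay above both control arrays, and both arrays labelled VEGFR2i above both labelled vehicle. Its difference was 0.86 [0.75, 0.97], or 1.82-fold, between VEGF and control buds, at rank 25 from the top among all genes. Between the explant pools it was 0.99 [0.92, 1.05], or 1.98-fold, at rank 128.

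Pdgfa, the ligand of the alpha receptor, was called in neither comparison. It was at 6.40 and 6.63 in VEGF buds, 6.37 and 6.31 in control buds, 7.46 and 7.57 in explants labelled VEGFR2i, and 7.76 and 7.71 in explants labelled vehicle. The bud arrays did not overlap but came within 0.03 of each other, and VEGF array 1 lay nearer to the control arrays than to its own repeat. The differences were 0.18 [0.03, 0.32] in the buds and -0.22 [-0.29, -0.14] in the explants, where the pool labelled vehicle was the higher one.

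The remaining members of the ligand family, Pdgfc and Pdgfd, and the receptor-like gene Pdgfrl gave no call: 0 of 3 in either comparison. Pdgfc, whose product binds the alpha receptor, differed by 0.47 between VEGF buds (8.95) and control buds (8.48) and by 0.20 between the explants. Pdgfd, whose product binds the beta receptor, was at 4.38 and 4.43 in the bud pools, near the array medians, and at 6.54 and 6.92 in the explants labelled VEGFR2i and vehicle, a difference of -0.38.

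Of the receptors, Pdgfrb separated the explant pools and Pdgfra hardly did. Pdgfrb was at 9.89 and 9.88 in VEGF buds, 9.70 and 9.71 in control buds, 9.73 and 9.82 in explants labelled VEGFR2i, and 8.68 and 8.56 in explants labelled vehicle. Its level was thus within a narrow band in 3 pools and about 1 log2 unit lower in the pool labelled vehicle. The difference was 1.15 [1.04, 1.26], or 2.22-fold, between the explants and 0.19 [0.18, 0.19] between the buds. That bud difference was small but larger than the gap between repeats, with SDs of 0.005 and 0.008.

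Pdgfra was at 9.72 and 9.77 in VEGF buds, 9.83 and 9.79 in control buds, 9.85 and 9.94 in explants labelled VEGFR2i, and 9.63 and 9.66 in explants labelled vehicle. Its pool means spanned 9.64 to 9.89, the narrowest range of the 10 genes, and neither difference, -0.07 [-0.11, -0.02] in the buds and 0.25 [0.19, 0.31] in the explants, reached the size rule.

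Among genes that handle the ligands or carry the signal of the receptors, 0 of 19 measured were called in the buds, with a median difference of 0.00. In the explants 2 of 19 were called higher and none lower, with a median of 0.14, and all 19 differences were positive, against 48.1% of all genes. The called genes were Plau, which encodes urokinase, the activator of PDGF-D, with a difference of 1.72 (7.11 against 5.38), and Plat, which encodes tissue plasminogen activator, the activator of PDGF-C, with 0.93 (8.07 against 7.14). Both act on ligands. The adaptors and enzymes that bind the activated receptors were not called and differed less: Shc1 by 0.24, Pik3r1 by 0.13, Plcg1 by 0.13 and Grb2 by 0.07.

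**Figure D2:**
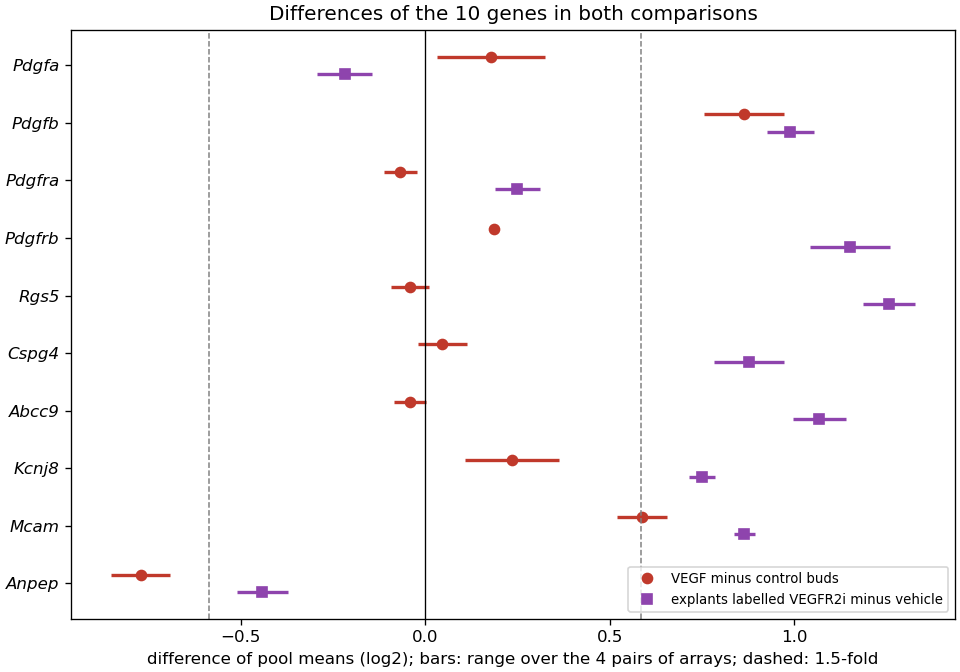
Difference of pool means (horizontal axis, log2) for each gene, with circles for VEGF minus control buds, squares for explants labelled VEGFR2i minus vehicle, bars from the lowest to the highest of the 4 array pairs and dashed lines at 1.5-fold. The circles of Rgs5, Cspg4 and Abcc9 sit near 0 while their squares lie at 0.88 to 1.26, and the circle of Mcam sits on the line.

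Rgs5, Kcnj8, Abcc9 and Cspg4 are pericyte markers that were higher together in the explants labelled VEGFR2i, as Pdgfrb and Mcam were. The 250 bases before the start sites of these 4 markers are shown. For the 10 genes, windows on a chromosome set aside beforehand were not read, and 8 genes had a window among the rest. Pdgfb and Pdgfrb are not among these 8. The sequences shown are from RefSeq (build GRCm38.p6). They lie at chr1:169655251-169655500 (plus strand, Rgs5), chr6:142571615-142571864 (minus strand, Kcnj8), chr6:142702275-142702524 (minus strand, Abcc9) and chr9:56864854-56865103 (plus strand, Cspg4), and each reads 5′ to 3′ toward the gene. Kcnj8 and Abcc9 are neighbours with no other gene listed between them. Capitals mark matches to any of 4 motifs on either strand: TGGGAA, the core bound by the Notch effector Rbpj, the GC box GGGCGG, the TATA box TATAAA, and the CArG box of serum response factor.
Rgs5: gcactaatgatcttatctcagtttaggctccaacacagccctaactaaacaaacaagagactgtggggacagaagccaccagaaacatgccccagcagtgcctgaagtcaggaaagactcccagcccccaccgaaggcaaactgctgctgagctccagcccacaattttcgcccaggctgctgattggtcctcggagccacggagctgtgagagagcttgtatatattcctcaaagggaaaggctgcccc
Kcnj8: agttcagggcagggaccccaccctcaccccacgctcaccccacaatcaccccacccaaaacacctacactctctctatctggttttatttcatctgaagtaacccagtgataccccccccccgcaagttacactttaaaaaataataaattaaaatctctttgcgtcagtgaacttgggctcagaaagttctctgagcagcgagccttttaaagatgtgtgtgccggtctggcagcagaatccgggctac
Abcc9: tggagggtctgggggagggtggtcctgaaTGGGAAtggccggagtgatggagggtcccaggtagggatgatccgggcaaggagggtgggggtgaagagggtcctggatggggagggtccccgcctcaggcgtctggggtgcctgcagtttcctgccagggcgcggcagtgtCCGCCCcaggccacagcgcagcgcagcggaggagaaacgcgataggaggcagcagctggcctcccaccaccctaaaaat
Cspg4: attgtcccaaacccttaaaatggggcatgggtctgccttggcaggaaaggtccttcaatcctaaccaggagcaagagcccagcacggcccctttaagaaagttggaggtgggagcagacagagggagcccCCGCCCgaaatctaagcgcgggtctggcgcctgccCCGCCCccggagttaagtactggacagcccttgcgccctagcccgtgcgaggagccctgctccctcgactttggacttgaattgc
Abcc9 held 1 TGGGAA, 221 to 216 bases before the start, and 1 GC box, Cspg4 held 2 GC boxes, and Rgs5 and Kcnj8 held no match. Of 32851 promoter windows of the same length, 21.6% held TGGGAA, 32.7% the GC box, 12.4% the TATA box and 1.47% the CArG box. No motif searched was shared by all 4 genes. The windows of Rgs5 and Kcnj8 were 53.6% and 49.2% G and C, near the median of all windows (52.4%), against 66.8% for Abcc9, 60.4% for Cspg4 and 73.6% for Mcam.

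Rgs5 encodes a regulator that shortens signals of G protein-coupled receptors and is among the most used pericyte markers. It was at 8.62 and 8.59 in VEGF buds, 8.68 and 8.61 in control buds, 8.38 and 8.27 in explants labelled VEGFR2i, and 7.08 and 7.06 in explants labelled vehicle. The bud arrays overlapped, and the explant arrays were far apart. The difference was -0.04 [-0.09, 0.01] in the buds and 1.26 [1.19, 1.33], or 2.39-fold, in the explants, the largest of the 10 genes and rank 67 from the top among all genes. Of 17 other measured RGS genes, 0 were called in the explants and 1 in the buds, Rgs2, which was higher in VEGF buds by 0.62 (6.69 against 6.07). Of these 17, 9 in each bud pool and 8 in each explant pool lay at or below the array median, so these counts are limited by the dim end of the scale.

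Abcc9 and Kcnj8 encode the regulatory and pore subunits of the ATP-sensitive potassium channel of pericytes and vascular muscle. Abcc9 was at 9.02 and 8.97 in VEGF buds, 9.02 and 9.05 in control buds, 8.45 and 8.38 in explants labelled VEGFR2i, and 7.39 and 7.31 in explants labelled vehicle. Kcnj8 was at 8.70 and 8.80, 8.60 and 8.44, 7.68 and 7.75, and 6.97 and 6.96 in the same order of pools. For both genes every bud array lay above every explant array, and the explants labelled vehicle were lowest. The explant differences were 1.07 [0.99, 1.14], or 2.10-fold, for Abcc9 and 0.75 [0.71, 0.78], or 1.68-fold, for Kcnj8. In the buds they were -0.04 [-0.08, 0.00] and 0.23 [0.11, 0.36], so Kcnj8 separated the bud pools by more than its repeats did and Abcc9 did not, and neither reached the size rule. Of the subunits of the same kind of channel in endocrine cells, Abcc8 was called lower in VEGF buds, by a difference of -1.31 (5.36 against 6.67), and Kcnj11 was not called (-0.25). Between the explants Abcc8 differed by -0.26 and Kcnj11 by -0.14.

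Cspg4 encodes the surface proteoglycan NG2. It was at 6.58 and 6.59 in VEGF buds, 6.60 and 6.48 in control buds, 6.10 and 6.26 in explants labelled VEGFR2i, and 5.32 and 5.29 in explants labelled vehicle. The bud arrays overlapped, with a difference of 0.05 [-0.02, 0.11] that turned to -0.01 without control array 2. The explant arrays did not overlap, with a difference of 0.88 [0.78, 0.97], or 1.84-fold.

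Mcam was called higher in both comparisons, though in the buds only just. It was at 9.16 and 9.08 in VEGF buds, 8.57 and 8.50 in control buds, 9.76 and 9.73 in explants labelled VEGFR2i, and 8.86 and 8.89 in explants labelled vehicle. The bud difference of 0.59 [0.52, 0.65] lay on the size rule and was 0.55 without VEGF array 1, 0.56 without control array 2 and 0.57 with quantile normalization of the bud arrays. The explant difference was 0.86 [0.84, 0.89], or 1.82-fold.

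Anpep went the other way. It was at 7.46 and 7.33 in VEGF buds, 8.18 and 8.15 in control buds, 9.12 and 9.06 in explants labelled VEGFR2i, and 9.57 and 9.49 in explants labelled vehicle. VEGF buds lay below control buds without overlap, by a difference of -0.77 [-0.85, -0.69], a level 1.71-fold higher in the controls and at rank 90 from the bottom among all genes. In the explants the difference was -0.44 [-0.51, -0.37], short of the size rule. Genes of the pancreatic epithelium were lower in VEGF buds as well, 7 of 13 by the size rule with a median difference of -0.64 and a summed linear signal of 4767 to 5010 against 7907 to 7925 on the control arrays. Their part in the Anpep difference was not tested. Of 7 other measured peptidase genes, 0 were called in either comparison, and Dpp4, another brush border enzyme, differed by -0.26 in the buds and -0.20 in the explants.

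Pericyte markers outside the 10 genes, from a list of 28 of which 27 were measured, gave 1 call in the buds and 7 in the explants, none of them lower, with median differences of 0.05 and 0.25. In the buds the called gene was Nes (0.74), an intermediate filament gene that growing endothelium also expresses. In the explants the largest differences were those of the transcription factor gene Ebf1 (1.76), the nitric oxide receptor subunits Gucy1b1 (1.43) and Gucy1a1 (0.94), and Nes (0.86). Notch3, the Notch receptor of mural cells, differed by -0.02 in the buds and 0.25 in the explants, and Des, which encodes desmin, by 0.15 and 0.51. Vtn, which encodes vitronectin, had the most negative difference of the list in both comparisons, with -0.35 in the buds (8.93 against 9.28) and -0.53 in the explants (8.76 against 9.28), and was not called. Higd1b, Tbx18, Foxd1, Art3, P2ry14, Zic1 and Atp13a5 lay at or below the array median in all 4 pools. Of the 27 measured genes, 9 did so in each bud pool and in the explants labelled VEGFR2i. In the explants labelled vehicle 12 did so. The list medians above include these dim genes. In tissue RNA fewer cells of a type and less RNA per cell cannot be told apart.

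Markers of other cell types differed between the explant pools as well. Endothelial genes had a median difference of 1.92 in the explants, above that of every one of the 10 genes, and a summed linear signal of 2390 to 2442 on the arrays labelled VEGFR2i against 535 to 572 on those labelled vehicle, where Flt1, Tek, Emcn, Erg, Sox17 and Robo4 lay at or below the array median. Cdh5 and Pecam1 differed by 4.10 and 3.39, with Pecam1 at 4.31 in the explants labelled vehicle, level with the array medians. Smooth muscle genes had 5 of 10 called higher, including Myh11 (0.82), Smtn (0.78), Cnn1 (0.69) and Actg2 (0.66), with a summed signal of 5199 to 5256 against 3499 to 3504. Leukocyte genes had 9 of 12 called higher, led by Laptm5 (1.35) and Cybb (1.31), with 969 to 1012 against 485 to 503. Mesenchymal genes had 3 of 15 called higher, led by Thy1 (1.23), and a median of 0.14, with 13327 to 13366 against 12046 to 12351. The part of these cells in the pericyte gene differences was not tested.

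The buds gave another arrangement. Endothelial genes had 6 of 16 called higher in VEGF buds, with a median of 0.53 and a summed signal of 5062 to 5164 against 3324 to 3351 in control buds. Relative to that median, Pdgfb lay 0.33 above and Mcam 0.06 above. Rgs5 lay 0.57 below, Abcc9 0.57 below, Cspg4 0.48 below, Pdgfrb 0.34 below and Kcnj8 0.29 below. Smooth muscle genes had 0 of 10 called, with a median of 0.04. Tagln (0.58), Acta2 (0.57) and Smtn (0.38) differed most, just short of or below the size rule. Their list had a summed signal of 1244 to 1258 against 897 to 913 in control buds. Cnn1 and Myocd lay at or below the array median in both bud pools, and Lmod1 did so in control buds, so the count is limited by dim genes. Leukocyte genes had 0 of 12 called and a median of 0.07. Mesothelial genes had 5 of 8 called higher, including Gpm6a (0.95) and Upk1b (0.86), with a median of 0.66 and a summed signal of 1108 to 1139 against 782 to 790 in control buds. The part of endothelial and mesothelial cells in the Pdgfb and Mcam differences was not tested. Whether the ratio of pericyte to endothelial RNA differed between the genotypes cannot be tested with 1 pool of each.

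**Figure D3:**
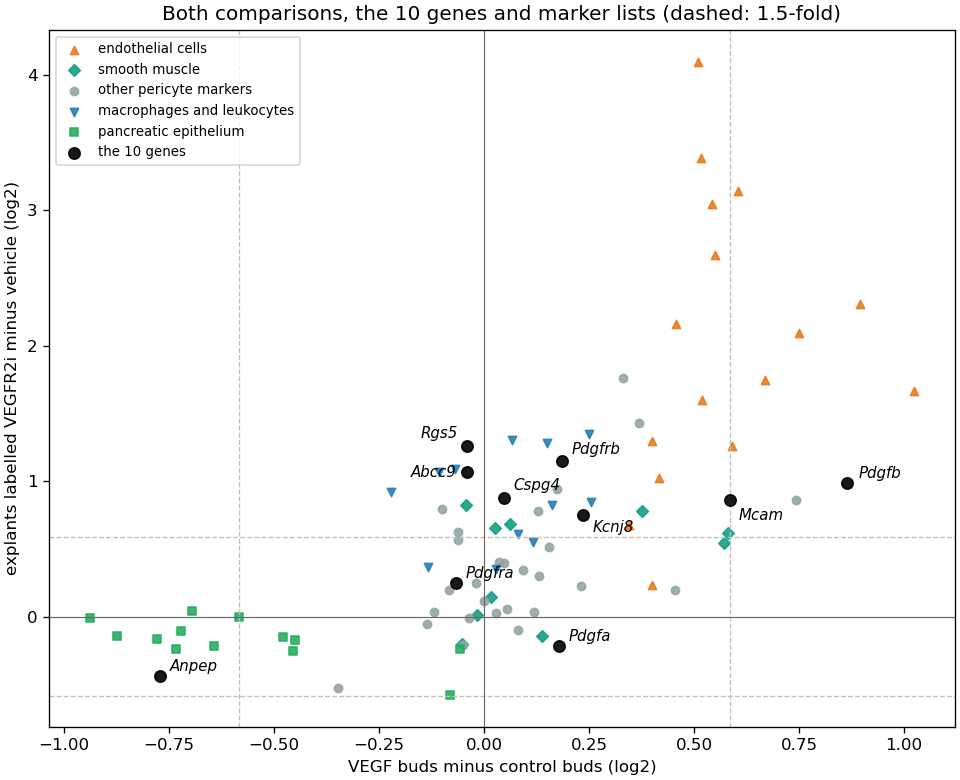
Each point is a gene, placed by its difference between VEGF and control buds (horizontal, log2) and between explants labelled VEGFR2i and vehicle (vertical, log2), with the 10 genes in black and marker lists in colour. Rgs5, Abcc9, Cspg4, Pdgfrb and Kcnj8 stand at -0.04 to 0.23 on the horizontal axis and at 0.75 to 1.26 on the vertical axis, left of the endothelial genes. Pdgfb and Mcam stand among or beside the endothelial genes on the horizontal axis.

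Genes by which endothelium and pericytes act on each other gave calls in the explants. In the buds 0 of 16 were called, though 15 of 16 differences were positive, against 51.6% of all genes, and the median was 0.24. Tgfb1, which promotes mural cell differentiation, came nearest with 0.57 (8.05 against 7.48). In the explants 8 of 16 were called higher, led by the sphingosine-1-phosphate receptor gene S1pr1 (2.00), Tgfb1 (1.63) and the TGF-beta co-receptor gene Eng (1.60). Tek, the angiopoietin receptor gene, was called too, but its level of 3.54 in the explants labelled vehicle lay below the array median, so its difference is limited by the dim end of the scale. Tek and Eng were also counted among the endothelial genes above. Angpt1, the Tek ligand that pericytes make, differed by 0.51 (4.42 against 3.91, the latter below the array median), and Angpt2, a ligand that can oppose it, lay at or below the array median in all 4 pools.

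The profiles most like those of 4 of the genes were sought over the 8 arrays, after each gene was centred within buds and within explants, among 10133 genes with a mean level of at least 5. Nearest to Pdgfb were Pcdh17, Flt4, Klhl6, Nes and Itga1, with root mean square distances of 0.05 to 0.09. Nearest to Pdgfrb were Adcy4, Ednrb, Ptprm, Emp1 and Sh2d3c (0.06 to 0.07), and nearest to Rgs5 were Tspan18, Fndc3c1, Stab1, Abcc9 and Cd36 (0.07 to 0.08). The genes nearest to Pdgfra, namely Zfp608, Cdkn1c, Nfic, Zfp160 and Rbfox2 (0.01 to 0.03), differed by -0.07 to -0.04 in the buds and by 0.22 to 0.26 in the explants. In the explants labelled vehicle Pcdh17 (4.17), Flt4 (3.59), Klhl6 (3.77) and Fndc3c1 (4.00) lay below the array medians and passed the minimum through the other pools, so their explant differences and distances are limited by the dim end of the scale. Of the genes nearest to Pdgfb and measured above the median in every pool, Nes differed by 0.74 in the buds and 0.86 in the explants, and Itga1 by 0.75 and 1.02. Of those nearest to Rgs5, Tspan18, Stab1, Abcc9 and Cd36 differed by -0.11 to 0.02 in the buds and by 1.07 to 1.45 in the explants. These likenesses rest on 4 pools and describe them only.

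Levels were also set across fresh and cultured buds, which may have been normalized separately. The control buds were fresh and carried Pdx1-tTA, whereas the explants were wild-type and cultured for 2 days. Culture, age, genotype and array set therefore cannot be told apart in these differences. The median gene lay 0.17 above the control buds in each explant pool, and at 0.00 once all 8 arrays were quantile normalized together. In the explants labelled vehicle, Abcc9 lay below the control buds by a difference of -1.69, Rgs5 by -1.58, Kcnj8 by -1.55, Cspg4 by -1.24 and Pdgfrb by -1.08. With joint normalization these became -1.99, -1.89, -1.87, -1.55 and -1.38. The explants labelled VEGFR2i lay nearer to the control buds, with differences of -0.80 for Kcnj8, -0.62 for Abcc9, -0.36 for Cspg4, -0.32 for Rgs5 and 0.07 for Pdgfrb, the last of which turned to -0.24 with joint normalization, as Pdgfra turned from 0.08 to -0.23. All 5 genes thus kept their order of control buds above explants labelled vehicle under both scalings.

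Pdgfa, Mcam and Anpep were above the control buds in both explant pools. The differences were 1.40 and 1.18 for Pdgfa, 1.36 and 0.92 for Anpep, and 0.34 and 1.21 for Mcam, each in the pool labelled vehicle and then in the pool labelled VEGFR2i, and with joint normalization the Mcam difference of the pool labelled vehicle was 0.04. Smooth muscle genes were likewise higher in the explants. Their summed linear signals were 897 to 913 in control buds, 1244 to 1258 in VEGF buds and 3499 to 5256 over the explant arrays. Acta2 was the brightest of these genes in every pool, with 8.95 in control buds and 10.93 in explants labelled vehicle, and weighs most in the sums. The summed contractile signal was thus higher, and the 5 genes from Pdgfrb to Kcnj8 lower, in explants labelled vehicle than in control buds as deposited.

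**Figure D4:**
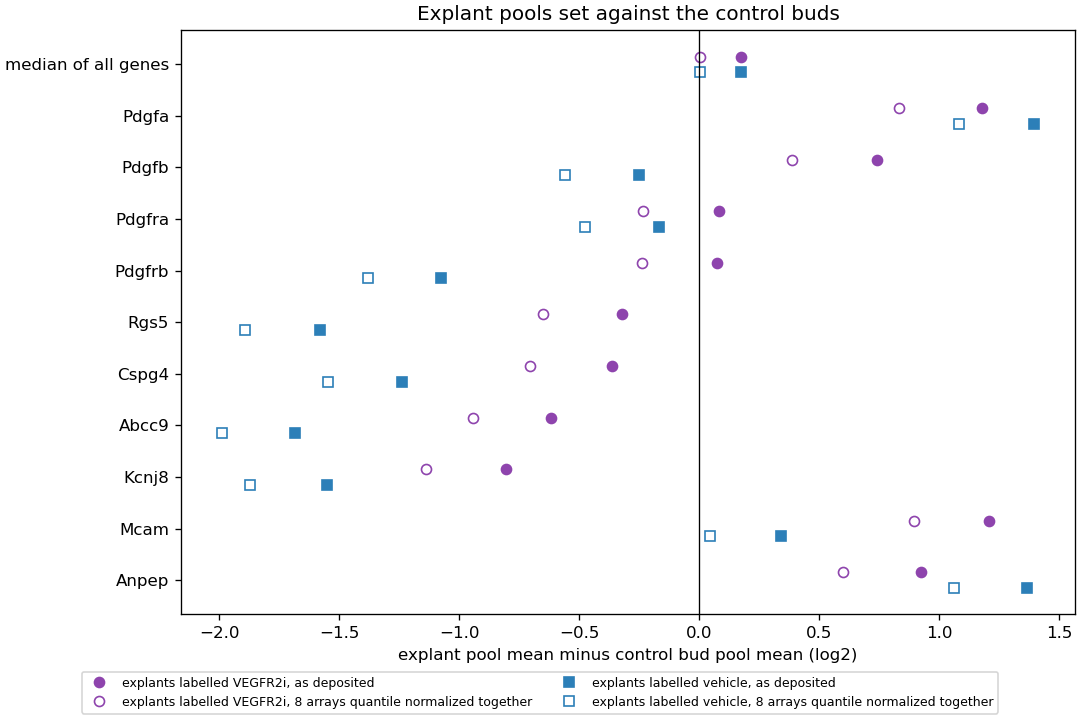
Difference of each explant pool from the control buds (horizontal axis, log2) for the median of all genes and for each of the 10 genes, with circles for the pool labelled VEGFR2i and squares for the pool labelled vehicle, filled as deposited and open after joint quantile normalization of the 8 arrays. The 5 genes from Pdgfrb to Kcnj8 lie at -1.08 or lower in the pool labelled vehicle and between -0.80 and 0.07 in the pool labelled VEGFR2i as deposited.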

How the data were processed

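The authors deposited log2 expression values per probe set, made by robust multi-array averaging in Partek Genomic Suite 6.5 from Affymetrix mouse gene 1.0 ST arrays, as the design text states; the range of the values shows the log2 scale. Averaging of this kind compresses differences of dim genes and can mask a shift common to most genes. The platform annotation gave 1 symbol to 21789 of 35399, several to 1621 and none to 11989. A gene with several probe sets was read from its brightest. The Entrez IDs of all 10 genes matched RefSeq (GRCm38.p6). With 1 pool per group no test was run. The size rule was tried on simulated arrays with changes of 1 and 2 log2 units and noise between arrays only. That trial does not cover changes near 1.5-fold or variation between pools. Summed linear signals add 2 to the power of each level. The 10 genes and 14 lists (174 of 183 list entries measured, a gene on several lists counting in each) were chosen with earlier results of these data known. The group of 5 from Pdgfrb to Kcnj8 was not one of these lists. Named genes are the 10, up to 4 called genes per list and comparison, the nearest genes and defining markers; others, such as Pdgfc, Shc1, Notch3, Des, Dpp4 and Angpt1, were picked for their role after their values were seen. Alternatives were a 2-fold rule, leaving out each array, centring, quantile normalization, mean probe sets and a level minimum of 5. Precision is limited by the number of arrays, 2 per pool, for hybridization error, and by 1 pool per group for the conditions. Python 3.11.15 and pandas 2.3.3 were used.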

Additional observations from a re-analysis of the deposited data

How the results depend on the processing

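With a 2-fold rule, 0 of the 10 genes were called in the buds (0 higher and 0 lower) and 3 in the explants, all 3 higher: Rgs5, Pdgfrb and Abcc9. Leaving out 1 array at a time gave 1 to 2 genes higher in VEGF buds, since Mcam was lost without VEGF array 1 and without control array 2. Quantile normalization of the bud arrays also left 1 gene higher, Pdgfb, with Mcam again lost. Under the 1.5-fold alternatives run, Pdgfb and Anpep kept their bud calls and the 7 explant genes kept theirs. Normalizing all 8 arrays together, an alternative chosen after seeing the data, turned the small differences of Pdgfra and Pdgfrb between the explants labelled VEGFR2i and the control buds. Depth does not apply to arrays, and 2 technical arrays of 1 pool bound hybridization error only.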
